A study of Rattus norvegicus with 9 samples.

Results

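The livers of rats with acute-on-chronic liver failure (ACLF) were compared with the livers of normal rats, gene by gene over the whole transcriptome. All rats were male Sprague-Dawley rats, which the paper describes as aged 8 to 11 weeks when obtained. It does not give their ages at liver collection. The ACLF livers, Empty 1 to Empty 3, came from rats whose common bile duct had been ligated for 21 days before lipopolysaccharide (LPS) at 0.25 mg/kg was injected into the peritoneum. These rats were connected under isoflurane, with heparin, to an extracorporeal circuit that held neither hepatocyte-like cells nor the leukocyte apheresis column, and blood was circulated for 2 h. Their livers were taken 24 h after LPS, from animals alive at that time. The normal livers, Normal 1 to Normal 3, carry no ligation, LPS or circuit in their labels, and whether these rats underwent a sham operation is not given in the sources used here. Bile duct ligation, LPS, the circuit, its anaesthesia and any difference in age therefore cannot be told apart. The comparison takes 6 of the 9 livers of the series, chosen by their labels alone, and the other 3 livers entered the model to help estimate the spread and to decide which genes had enough reads to be tested.

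Ligation of the bile duct holds bile back in the liver. Over weeks it is known to drive proliferation of bile duct epithelium, activation of hepatic stellate cells and scarring that ends in biliary cirrhosis. LPS, a component of the bacterial outer membrane, acts through the receptor TLR4 on macrophages and other cells and calls up cytokines, chemokines and the acute-phase response, in which hepatocytes change which plasma proteins they make. The normal liver devotes much of its mRNA to albumin and other plasma proteins and to metabolism of drugs, amino acids, lipids and ammonia.

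Gene expression was measured by bulk poly(A) RNA-seq, and the authors deposited read counts and TPM, a level scaled by gene length and library total. Between 14241172 and 15205300 reads were counted in normal livers and between 15775439 and 17321677 in Empty livers. A gene was called higher or lower in Empty livers where its fold change exceeded 2 and its p from edgeR, after Benjamini-Hochberg adjustment across the whole table, was under 0.05, and "rose" and "fell" are used here for called genes only. The first principal component, holding 87.6% of the variance of the 1000 most variable genes, separated the groups. Empty 2 stood apart from the other Empty livers on the second (6.30%), at -38.4 against 19.5 and 16.7. The 9 hepatocyte markers summed to between 174158 and 191114 TPM in normal livers and between 46110 and 83757 in Empty livers, while 8 of 10 genes of kidney, muscle and pancreas used as an absence check had too few reads to be tested and 1 of the other 2, Acta1 of skeletal muscle, was called higher in Empty livers (0 in normal and 0.629, 0.151 and 2.96 TPM in Empty livers; no call without Empty 3, without any 1 of the normal livers or with the replicate number as a block). Levels are per tissue, so fewer cells of a type and less RNA per cell cannot be told apart.

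Of 14089 genes tested, 2916 (20.7%) were higher and 1560 (11.1%) were lower in Empty livers, 31.8% in all. Without the 2-fold threshold 3788 (26.9%) were higher and 3036 (21.5%) lower. The median log2 fold change was 2.55 among genes called higher and -1.53 among genes called lower, against 0.04 over all genes tested. More than 16-fold changes were found in 748 genes that rose and in 83 that fell. These sizes are not alike in certainty, since 570 of the rises had 3 or fewer counts in each normal liver and 30 of the falls 3 or fewer in each Empty liver, where the fitted fold depends on the prior count. Without any read in the 3 normal livers, 170 genes were called higher, and 6 genes that fell had no read in the 3 Empty livers. The direction followed the level in the normal liver. Of the 648 genes under 0.1 TPM in normal livers, 586 (90.4%) rose and 0 fell, which the filter on low counts favours, since a gene so low there could be tested only if enough reads fell in an ACLF group. Of the 107 genes above 1000 TPM in normal livers, 5 rose and 55 (51.4%) fell, with a median of -1.09. The mRNA pool was spread over more genes in Empty livers: 62 to 68 genes made up 50% of all TPM in normal livers and 84 to 123 in Empty livers. Mitochondrial transcripts took 11.8 to 13.3% of TPM in normal livers and 11.96 to 13.6% in Empty livers.

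**Figure D1:**
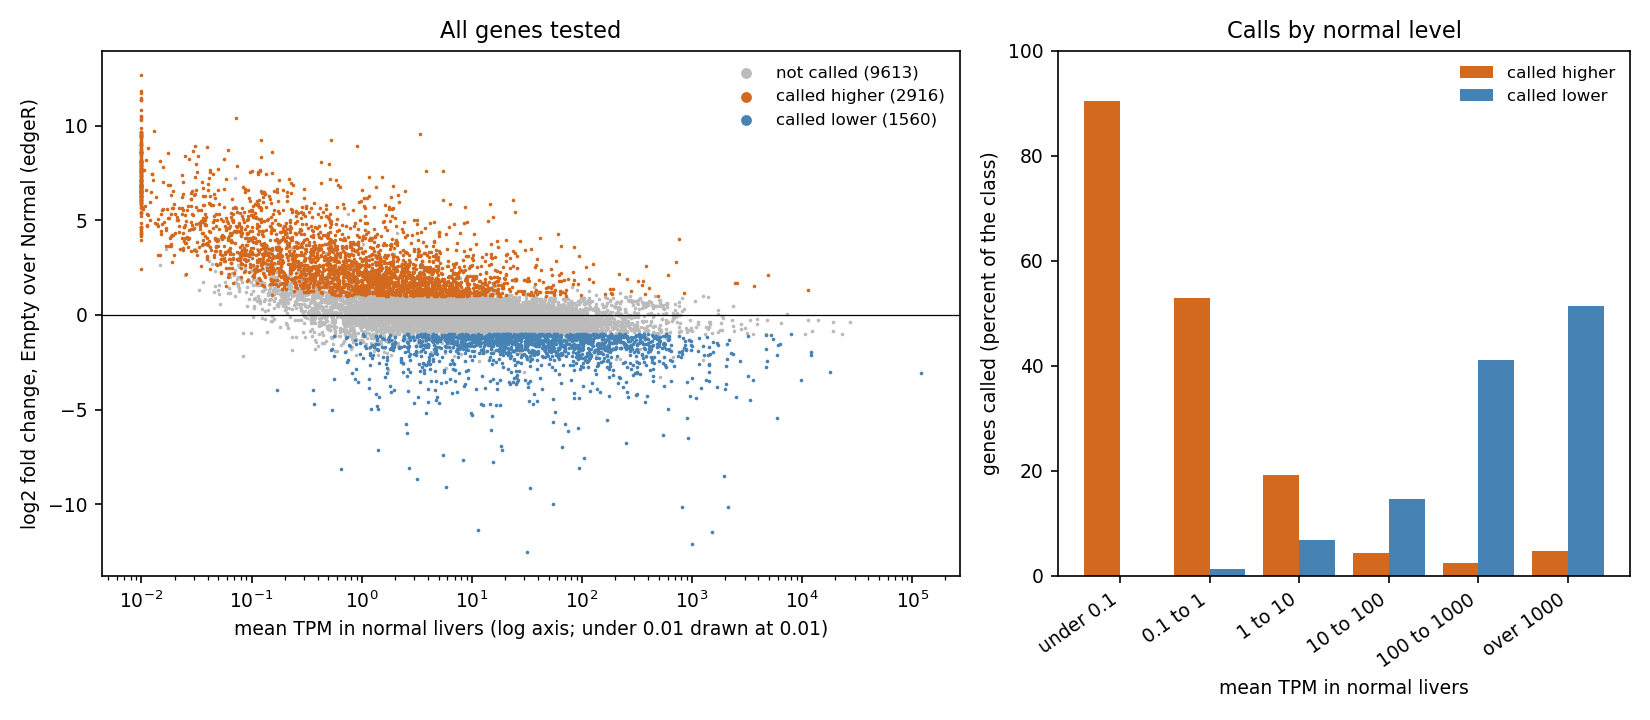
Left, the log2 fold change of Empty over Normal livers (edgeR) of 14089 genes against their mean TPM in 3 normal livers on a log axis, with called genes in colour. Right, the percent of genes called in each class of normal level. The share called higher falls from 90.4% below 0.1 TPM to 4.67% above 1000 TPM, while the share called lower grows from 0% to 51.4%.

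How the libraries were scaled sets the balance of rises and falls. The TMM factors, which discount a few very abundant genes, were 0.80 to 0.83 in normal livers and 1.11 to 1.32 in Empty livers, and with library totals alone the median log2 fold change of all genes moved from 0.04 to 0.60. On that scale 4477 genes were higher and 682 lower, so that 86.8% of calls were rises against 65.1% with TMM. TPM carry no TMM factor, so a gene whose TPM is modestly higher in Empty livers can have a log2 fold change near 0. On TPM, 53.4% of the genes tested had all 3 Empty livers above all 3 normal livers and 12.8% had them all below, the shares against which such a statement on a single gene is to be read (66.3% in all, or 32.4% above and 28.8% below on TMM-scaled counts).

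The 10 genes whose mean TPM rose most were mainly acute-phase genes, and together they went from 3.43% to 15.2% of all TPM. Haptoglobin (Hp), which binds free haemoglobin, had 11941, 10036 and 11948 TPM in normal livers and 46404, 39684 and 36385 in Empty livers (log2 fold change 1.34 ± 0.33 (SE), adjusted p = 0.00864). Hemopexin (Hpx), the heme carrier, had 5876, 3919 and 5042 and 40527, 19989 and 29529 TPM (log2 fold change 2.09 ± 0.42 (SE), adjusted p = 0.0033). The lipid-binding plasma protein gene Orm1 went from 994, 609 and 687 to 25972, 6980.4 and 19861 TPM (log2 fold change 4.01 ± 0.59 (SE), adjusted p = 0.000673). In these 3 genes each Empty liver was above every normal liver, and Empty 2 was the lowest of the Empty livers for Hpx and Orm1. Kininogen (Kng1), whose reads may be shared with the related rat T-kininogens, had 743, 689.8 and 727 and then 11094, 4293 and 5921 TPM (log2 fold change 2.80 ± 0.48 (SE), adjusted p = 0.00148). Clusterin (Clu), a secreted chaperone, had 653, 576 and 593 and 3342, 3215 and 4592 TPM (log2 fold change 2.08 ± 0.25 (SE), adjusted p = 0.000251). The metallothionein Mt2A, a binder of zinc and copper, was low in normal livers at 1.31, 2.46 and 6.38 TPM and reached 2912, 4021 and 4429 TPM in Empty livers (log2 fold change 9.57 ± 1.19 (SE), adjusted p = 0.00042). Serpina1, the antitrypsin gene, was also among the 10, from 8016, 6563 and 7276 to 13291, 9071 and 10325 TPM, but was not called (log2 fold change 0.07 ± 0.31, adjusted p = 0.87).

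The 3 fibrinogen chain genes completed that list and moved together. Fga had 2821, 2134 and 2351 TPM in normal livers and 16216, 5021 and 12003 in Empty livers (log2 fold change 1.67 ± 0.49 (SE), adjusted p = 0.0188). Fgb had 2819.7, 2282 and 2578 and 17153, 4746 and 13009 TPM, and Fgg 3875, 3318 and 3846 and 21609, 7209 and 16702. Fibrinogen was thus highest in Empty 1 and Empty 3, and Empty 2 lay nearer to the normal livers than to them. The calls of all 3 chains ended without Empty 1, at log2 fold changes of 1.21 for Fga, 1.20 for Fgb and 1.11 for Fgg, and without Normal 2 or Normal 3, at 1.45 to 1.68. Those of Fgb and Fgg also ended without Normal 1 (1.74 and 1.57), and that of Fgg without Empty 3 (1.52) or with the replicate number as a block (1.48).

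Albumin led the genes whose TPM fell most, which went together from 22.9% to 6.74% of all TPM. Alb had 114722, 115784 and 127172 TPM in normal livers and 13854, 33608 and 12839.6 in Empty livers (log2 fold change -3.08 ± 0.58 (SE), adjusted p = 0.00226). Transthyretin (Ttr), the carrier of thyroid hormone and retinol-binding protein, had 18667, 16596 and 17936 and 1656, 5578 and 2365 TPM (log2 fold change -2.99 ± 0.52 (SE), adjusted p = 0.00147). Fabp1, the liver fatty acid-binding protein, had 8694, 9125 and 11398 and 1767, 1280.4 and 799 TPM (log2 fold change -3.42 ± 0.53 (SE), adjusted p = 0.000895). The groups were far apart in all 3 genes, and for Alb and Ttr Empty 2 kept the most transcript of the Empty livers. The desaturase Scd, which makes monounsaturated fatty acids, had 3813, 8119 and 5807 TPM in normal livers and 20.1, 539.7 and 4.14 in Empty livers (log2 fold change -5.47 ± 1.70 (SE), adjusted p = 0.0266); its call ended without Empty 1 (-4.94), without Normal 2 (-5.19) and with only the 6 libraries of both groups in the fit or no filter on counts (-5.47 in both). Transferrin (Tf), the iron carrier, had 23857, 20722 and 24557 and 10773, 25871 and 12745 TPM, so that the groups overlapped through Empty 2, and it was not called (adjusted p = 0.0896) except without Empty 2 (-1.51). The list also held the urinary protein gene Rup2, AABR07069878.1 and LOC680406, which have no descriptive name, the serpin Serpina3c and the mitochondrial Mt-co2. Rup2 and Serpina3c belong to families of similar genes that can share reads, so their values are uncertain. The calls of AABR07069878.1, Rup2 and Serpina3c each ended without Empty 1 (-1.96, -1.80 and -2.30) and without Empty 3 (-1.85, -1.64 and -2.36), that of AABR07069878.1 also without Normal 2 (-1.71) and that of Serpina3c without any 1 of the normal livers (-2.88 to -2.65), with library totals (-2.26), with the replicate number as a block (-3.17) and with no filter on counts (-2.77). Mt-co2 was not called (log2 fold change -0.87 ± 0.29).

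**Figure D2:**
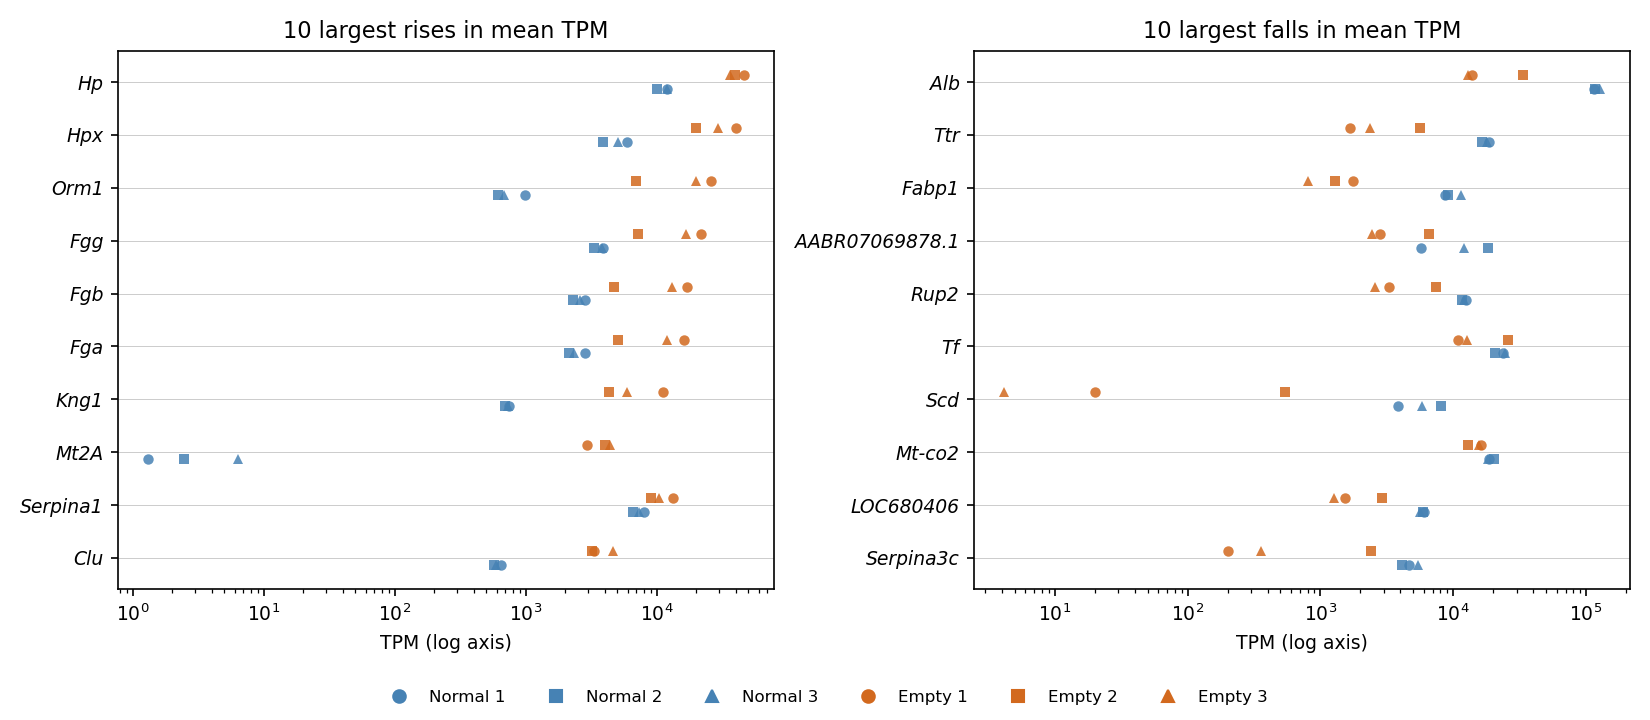
TPM on a log axis of the 10 genes with the largest rise and the 10 with the largest fall in mean TPM, with 1 point per liver and the replicate shown by marker shape. Every Empty liver exceeds every normal liver in the 10 rises, whereas Tf and AABR07069878.1 overlap between groups among the falls.

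Baat, the enzyme that joins bile acids to glycine or taurine, had 1032, 1294 and 1073 TPM in normal livers and 433, 522 and 357 in Empty livers (log2 fold change -1.88 ± 0.31 (SE), adjusted p = 0.00127). Its promoter is shown with those of the fibrinogen chains Fga and Fgb, hepatocyte products that went the other way. They were picked among the 10 of 57 candidate promoters that held any of the letters searched, after their values were seen. AP-1 letters were also held by Pnpla5 and Rbp4, which fell, by Mt2A and Abcb4, which rose, and by Hamp, which was not called. STAT3 letters were also held by Hsd3b7 and Abcc4, neither of which was called. The 3 sequences are the 250 bases before the RefSeq gene start on the rat build GRCr8, read 5′ to 3′ on the gene's strand, at chr2:170671919-170672168 (plus strand) for Fga, chr2:170700876-170701125 (minus) for Fgb and chr5:68656138-68656387 (minus) for Baat. Capitals mark matches on either strand to TTCCNGGAA (STAT3, in Fga), TGACTCA (AP-1, in Fgb) and CAAAGTCCA (HNF4, in Baat).
Fga: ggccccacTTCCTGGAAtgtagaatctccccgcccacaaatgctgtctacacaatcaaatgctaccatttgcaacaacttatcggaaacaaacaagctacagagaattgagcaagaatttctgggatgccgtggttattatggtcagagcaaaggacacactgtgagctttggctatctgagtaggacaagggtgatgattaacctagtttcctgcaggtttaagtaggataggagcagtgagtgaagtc
Fgb: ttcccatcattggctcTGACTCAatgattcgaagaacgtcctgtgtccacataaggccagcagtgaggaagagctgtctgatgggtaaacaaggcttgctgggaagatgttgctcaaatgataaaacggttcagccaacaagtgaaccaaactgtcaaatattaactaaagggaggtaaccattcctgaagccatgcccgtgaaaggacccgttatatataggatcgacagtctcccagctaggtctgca
Baat: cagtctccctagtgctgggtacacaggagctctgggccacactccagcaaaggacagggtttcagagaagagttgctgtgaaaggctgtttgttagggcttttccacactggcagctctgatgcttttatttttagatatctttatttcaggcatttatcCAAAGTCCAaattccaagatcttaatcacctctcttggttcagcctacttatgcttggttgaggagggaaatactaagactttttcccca
The STAT3 letters of Fga began 242 bases before its start and the AP-1 letters of Fgb 234 bases before its start. The HNF4 letters of Baat began 90 bases before its start. A promoter was given for 10593 of the genes tested. HNF4 letters were found in 0.878% of the 1139 promoters of genes that fell (10 promoters) and 0.280% of the 2142 of genes that rose (6 promoters). Their shares were 0.359% of all tested and 0.331% of all 27457 promoters. NF-kB letters (GGACTTTCC) were found in 0.176% of the promoters of genes that fell (2 promoters) and 0.560% of genes that rose (12 promoters). Their shares were 0.321% of genes tested and 0.240% of all promoters. AP-1 letters were found, in the same order, in 2.81%, 5.18%, 3.12% and 3.98%. The STAT3 letters were held by 1.23%, 1.07%, 1.13% and 1.04%. Those of C/EBP (TTGCGCAA) were held by 0.0878% (1 promoter), 0.233% (5 promoters), 0.217% and 0.164%. Matches of different motifs shared bases in 1 promoter. These are counts of letters in fixed windows, and whether a factor binds there was not tested.

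The 10 largest fitted fold changes upwards, taking genes of at least 10 TPM in the higher group, included 3 neutrophil-attracting chemokines. Where no normal liver held a read, the fitted fold depends on the prior count of the fit, so its order is not a ranking of the rises, and Mt2A, described above, is not on the list although its fold exceeds the bounds given here. Cxcl2 had no read in any normal liver and 11.7, 268 and 15.4 TPM in Empty livers, a rise of at least 208-fold against a floor of 3 counts per library (adjusted p = 0.00933; not called without a filter on counts), and of at least 27.8-fold without Empty 2. Cxcl3 went from 0 to 26.3, 57.8 and 27.5 TPM (at least 107-fold, adjusted p = 0.00152), and Cxcl6 from 0, 0.217 and 0 to 157, 154 and 163 TPM (adjusted p = 0.000229). Ccl20, which draws lymphocytes and dendritic cells through CCR6, went from 0 to 27.2, 110.2 and 32.03 TPM (at least 86.9-fold, or 44.8-fold without Empty 2, adjusted p = 0.000825). Empty 2 held by far the most Cxcl2 and Ccl20, while Cxcl6 was nearly equal in the 3 Empty livers. Near-identical chemokine copies could exchange reads.

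The rest of that list was mixed. Inhbb, the activin B subunit, was at 0 in normal livers and 10.3, 16.99 and 13.5 TPM in Empty livers (at least 82.2-fold, adjusted p = 0.00021). Fst, encoding the activin antagonist follistatin, was at 0 and 21.6, 11.3 and 21.9 TPM (at least 38.9-fold, adjusted p = 0.000545). Syt1, a vesicle calcium sensor best known from neurons, was at 0 and 18.6, 10.6 and 8.98 TPM (at least 113-fold, adjusted p = 0.000164). These 3 genes had no read in any normal liver and were present in every Empty liver. Postn, a matrix protein of activated fibroblasts, had 0.0387, 0 and 0 and 21.5, 14.6 and 21.6 TPM (adjusted p = 0.000132), and Cthrc1, another matrix-associated gene, 0 and 8.66, 12.6 and 11.3 TPM (at least 25.6-fold, adjusted p = 0.000166). Il6 went from 0 to 1.15, 80.3 and 2.14 TPM (adjusted p = 0.0268), almost all of it in Empty 2, and its call ended in limma on log2(TPM + 1), with only the 6 libraries, with no filter on counts and without any 1 of the normal livers. DESeq2 gave no p-value for Il6 or Cxcl2.

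Of the 10 largest fitted fold changes downwards, 3 were of genes above 1000 TPM in the normal liver. Ca3, a carbonic anhydrase abundant in male rat liver, fell from 1614, 1642 and 1272 to 0.127, 1.92 and 0.201 TPM (log2 fold change -11.49 ± 1.05 (SE), adjusted p = 0.00011). Cyp2c11, the main male-specific cytochrome P450 of rat liver, fell from 2107, 2227 and 1989.8 to 0.708, 6.70 and 0.375 TPM (log2 fold change -10.17 ± 1.29 (SE), adjusted p = 0.000462). Pnpla3, a lipid droplet acylhydrolase, fell from 1562, 2189 and 2079 to 0.593, 21.9 and 0.364 TPM (log2 fold change -8.49 ± 1.81 (SE), adjusted p = 0.00506). In each gene Empty 2 kept the highest level, still far below the lowest normal liver. LOC100360095, listed in RefSeq with the urinary protein synonym Rup-4, had 1189, 1196 and 609 TPM in normal livers and 0, 0.917 and 0 in Empty livers (adjusted p = 7.33e-05). AABR07047899.1, a protein-coding gene without a descriptive name, had 1138, 1139 and 176 and 0.751, 1.42 and 0.797 TPM (adjusted p = 0.00145), and Normal 3 was the lowest normal liver in both. DESeq2 gave no p-value for Pnpla3 or AABR07047899.1. The long noncoding RNA AABR07072511.1 (chr16:49163529-49167325 in the deposited table) had 32.7, 28.3 and 34.7 TPM in normal livers and no read in Empty livers, at least 297-fold lower. A second one, AABR07004572.1, had 12.5, 10.1 and 11.8 TPM and no read in Empty livers, at least 136-fold lower. Stac3, Sult4a1 and Pnpla5 completed the list, with the largest Empty value of the 3 genes at 1.49 TPM (Pnpla5 in Empty 2).

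**Figure D3:**
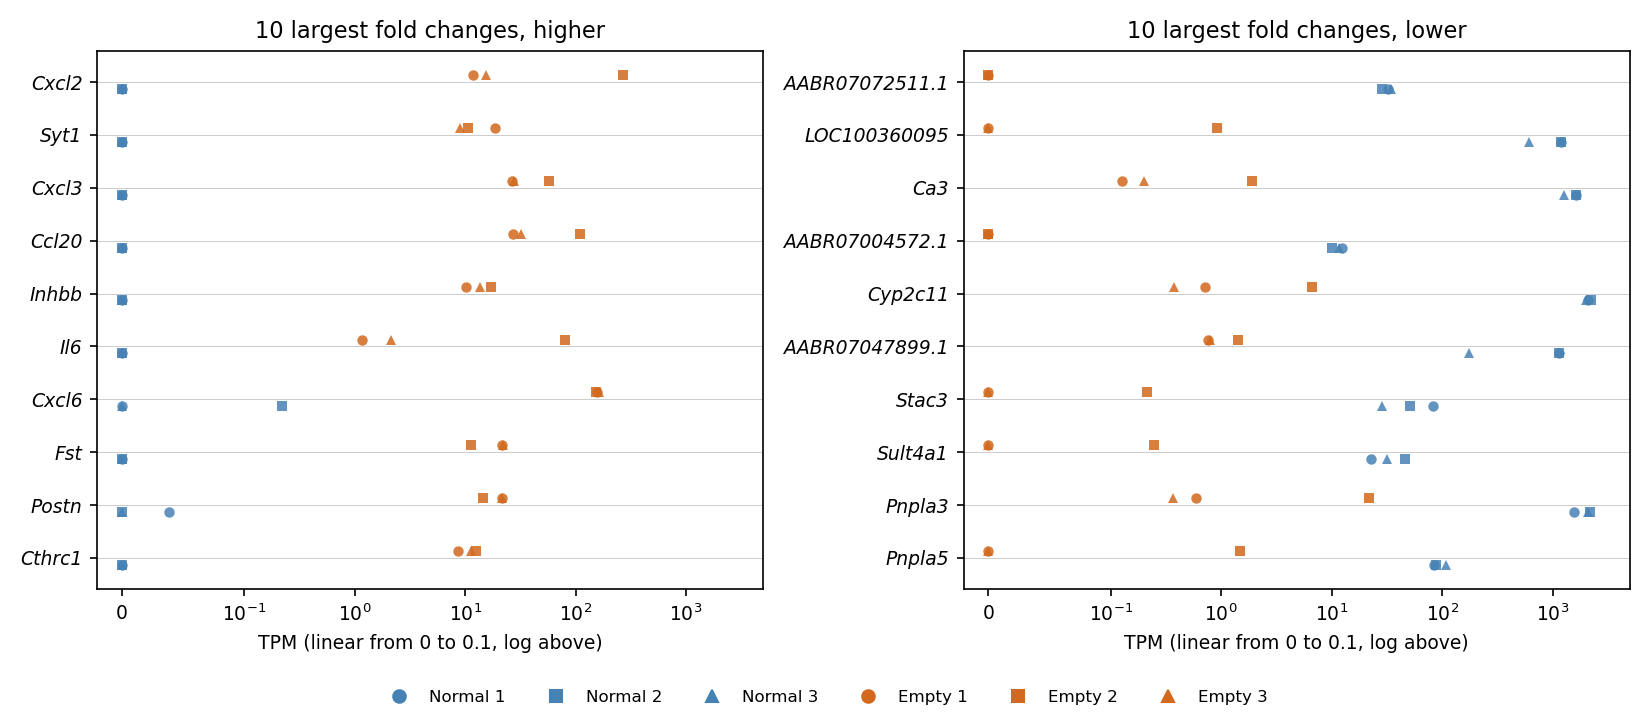
TPM per liver, linear from 0 to 0.1 and log above, of the 10 called genes with the largest fold change in each direction among those at 10 TPM or more in the higher group. On the left no normal liver exceeds 0.217 TPM; on the right Pnpla3 at 21.9 and Cyp2c11 at 6.70 TPM in Empty 2 are the only values of Empty livers above 1.92 TPM.

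Gene lists, described next, are given by how many tested members were called, to be read against 20.7% higher and 11.1% lower among all genes and a median of 0.04. With library totals in place of TMM the list medians lay about as much higher as that of all genes, and counts that moved by over 1.5 times and at least 3 genes are given beside their list. Whole-list medians that moved by over 1.5 times without Empty 2 are given beside their list or here. Among lists described in parts below, they went from -1.37 to -1.98 for all bile acid transporters and from -3.63 to -5.00 for sex-biased genes. For zonation genes the median went from -0.87 to -1.67. Medians nearer to 0 went from 0.76 to 0.37 for cell cycle genes, 0.27 to 0.05 for junctions and 0.23 to 0.04 for type I interferon genes. Others went from -0.20 to -0.39 for heat shock genes, -0.14 to -0.06 for iron genes and 0.21 to -0.14 for mast cell and platelet genes. Members with few or no reads in normal livers could be tested only through reads in an ACLF group, and with at least 10 counts in every library fewer were tested and rose: 7 rises in 9 bile duct markers tested, 4 in 4 neutrophil genes, 5 in 10 chemokines, 5 in 7 matrix proteases and inhibitors, 4 in 6 lymphocyte genes, 3 in 4 erythroid genes, 8 in 10 immediate early factors, 3 in 9 vasoactive genes, 3 in 12 p53 target and arrest genes and 6 in 22 cell cycle genes. The same minimum moved the median from -3.63 to -2.07 over all sex-biased genes and from 1.26 to 0.61 over all glycolysis genes. Where only 1 or 2 members were called in a direction, the call of at least 1 ended without some single liver for anticoagulants (both directions), canalicular exporters (falls), basolateral exporters (rise), glutamine and ammonia genes, amino acid breakdown (rise), iron genes (rises), endoplasmic reticulum stress (both directions), ribosomal proteins, quiescent stellate cells (rise), sinusoidal endothelium, cytokines (fall), mast cell and platelet genes (falls) and erythroid genes (fall). Among hepatocyte products, most called carriers, apolipoproteins and general markers were lower. Of 9 carriers of the plasma, 6 fell (3 without Empty 3) and 2 rose (median -1.09), and the rises were Hpx and Serpina7, the thyroxine-binding globulin, at 7.18, 2.21 and 4.10 TPM in normal and 123, 40.9 and 131 in Empty livers (log2 fold change 3.92 ± 0.56 (SE), adjusted p = 0.000778). Of 11 apolipoproteins, 6 fell and 0 rose (median -1.04), including Apoa2, a high-density lipoprotein component, from 4228, 2895 and 2497 to 198, 981 and 297 TPM (log2 fold change -3.22 ± 0.74 (SE), adjusted p = 0.00685). Of 9 general hepatocyte markers, 5 fell and 0 rose (median -1.04).

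Positive acute-phase proteins went the other way, with 13 of 19 higher and 0 lower (median 1.67). Alpha-2-macroglobulin (A2m), a protease inhibitor and the classical acute-phase protein of the rat, had 1.56, 1.75 and 2.44 TPM in normal livers and 219, 6.20 and 186 in Empty livers (log2 fold change 5.64 ± 1.35 (SE), adjusted p = 0.00874). The LPS-binding protein gene Lbp had 29.9, 16.6 and 27.9 and 1813, 1173 and 1554 TPM (log2 fold change 5.41 ± 0.37 (SE), adjusted p = 4.23e-05). A2m was far lower in Empty 2 than in the other Empty livers, though still above every normal liver, whereas Lbp differed little among the Empty livers. Of 26 complement genes, 6 rose and 1 fell (median 0.45; 12 rose with library totals). The rises included the macrophage-made C1qb, from 72.1, 59.5 and 62.5 to 496, 329 and 448 TPM (log2 fold change 2.20 ± 0.25 (SE), adjusted p = 0.000192), while C8g, a terminal component made in hepatocytes, went from 402, 337 and 403 to 82.9, 192 and 93.3 TPM (log2 fold change -2.15 ± 0.39 (SE), adjusted p = 0.00202). In coagulation, 2 of 9 clotting factors fell and 0 rose, and 1 of 6 anticoagulants fell and 1 rose, whereas 4 of 7 fibrinolysis genes rose and 1 fell. Without Empty 2, 4 clotting factors and 3 anticoagulants fell, and the call of Serpind1, the anticoagulant that fell, ended without any other liver, while the rise ended without Empty 2 or any 1 of the normal livers. Over all 22 coagulation genes 4 fell, and 8 without Empty 2, and their median of -0.40 became 0.13 with library totals, where 0 fell.

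Bile acid handling was lower at the points of uptake. Of 4 uptake transporters, 3 fell (median -2.80), among them the sodium taurocholate cotransporter Slc10a1, from 528, 469 and 502 to 92.9, 221 and 79.3 TPM (log2 fold change -2.44 ± 0.50 (SE), adjusted p = 0.00384), and Slco1a1, from 207, 198 and 259 to 18.9, 61.6 and 14.8 TPM (log2 fold change -3.31 ± 0.56 (SE), adjusted p = 0.00154). No Empty liver reached a normal liver in either gene. Among 5 canalicular exporters 1 rose and 1 fell, and of 2 basolateral exporters 1 rose, Abcc3, whose call ended without Empty 2 (1.17), Normal 2 (1.44) or Normal 3 (1.71). Leaving out single livers moved the 4 falls among all 11 transporters to 2 (without Empty 1, Empty 3 or Normal 2) or 6 (without Empty 2). Of 12 synthesis enzymes, 4 fell and 1 rose (median -0.99; 7 fell without Empty 2, median -1.61). Cyp7a1, the rate-limiting enzyme of the classical pathway, had 161, 397 and 186 TPM in normal livers and 42.7, 429.9 and 66.1 in Empty livers and was not called (adjusted p = 0.356), except without Empty 2 (-2.73). Cyp8b1, which sets the share of cholic acid, was lowest in that liver, with 244, 86.7 and 72.1 and 680.1, 8.43 and 527 TPM and no call (adjusted p = 0.463). Cyp7b1 of the alternative pathway rose from 4.19, 3.16 and 3.20 to 30.1, 19.6 and 20.5 TPM (log2 fold change 2.23 ± 0.28 (SE), adjusted p = 0.000338), and Akr1d1, which reduces the steroid nucleus, fell from 1695, 875 and 928 to 140.5, 507 and 192 TPM (log2 fold change -2.58 ± 0.62 (SE), adjusted p = 0.00776).

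Factors that govern hepatocyte genes were called lower in a minority. Of 11 nuclear receptors 4 fell and 0 rose (median -0.95; 1 fell with library totals and 2 in limma on TPM), and of 11 hepatocyte transcription factors 4 fell and 0 rose (median -0.96; 2 and 1). Nr1h4, the bile acid receptor FXR, had 50.02, 56.2 and 49.6 TPM in normal and 30.1, 19.3 and 26.8 in Empty livers (log2 fold change -1.55 ± 0.27 (SE), adjusted p = 0.00149), just short of the 2-fold threshold with library totals. Hnf4a, a central regulator of hepatocyte identity, had 166, 179 and 172 and 124, 84.1 and 110.0 TPM (log2 fold change -1.22 ± 0.27 (SE), adjusted p = 0.00511), and its log2 fold change was no longer past the 2-fold threshold with library totals (-0.67) or in limma on TPM (-0.72). Cebpa, another such regulator, had 180.3, 195 and 240.2 and 81.03, 122 and 69.6 TPM (log2 fold change -1.69 ± 0.32 (SE), adjusted p = 0.00226). Each Empty liver was below every normal liver for these 3 genes.

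Drug metabolism and sexually dimorphic genes were lower in many members. Of 39 cytochromes P450 19 fell and 5 rose (median -1.49); 3 to 8 rose when single livers were left out, the highest without Empty 2. Of 29 conjugation enzymes 17 fell and 2 rose (median -1.53, -2.19 without Empty 2). Sult1e1, an estrogen sulfotransferase high in male rat liver, had 2293, 2347 and 2915 TPM in normal livers and 45.99, 424 and 63.5 in Empty livers (log2 fold change -4.33 ± 1.07 (SE), adjusted p = 0.0101). Gstp1, a glutathione transferase typical of bile ducts and of altered hepatocytes, rose from 14.9, 11.5 and 12.98 to 125, 53.5 and 235 TPM (log2 fold change 2.84 ± 0.46 (SE), adjusted p = 0.00131). Among genes biased to male liver 5 of 6 fell (median -5.22), and among those biased to female liver 4 of 7 fell (median -2.14) and the other 3 were not called. Paralogous Cyp2c, Ugt2b and Sult genes can share reads. In the growth hormone and IGF list 3 of 10 fell and 1 rose (median -0.06, 0.48 with library totals and -0.79 without Empty 2). The receptor gene Ghr went from 336, 313 and 324 to 125, 141 and 85.6 TPM (log2 fold change -1.98 ± 0.39 (SE), adjusted p = 0.00273). Igfbp1, an IGF-binding protein that responds to fasting and stress, went from 1.72, 8.77 and 6.08 to 1399, 2294 and 911 TPM (log2 fold change 7.61 ± 0.75 (SE), adjusted p = 0.000139).

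Of 9 urea cycle genes 6 fell and 0 rose (median -1.50), and of 6 genes of glutamine and ammonia handling 2 fell (4 without Empty 2); over both lists 8 of 15 fell, and 5 with library totals. Cps1, which fixes ammonia into the cycle, had 2455, 2447 and 2097 TPM in normal livers and 688, 1058 and 661 in Empty livers (log2 fold change -2.05 ± 0.33 (SE), adjusted p = 0.001). Otc, the next enzyme, had 619, 675 and 628 and 20.7, 193 and 24.7 TPM (log2 fold change -3.51 ± 0.92 (SE), adjusted p = 0.0131). Both were lower in each Empty liver, and Empty 2 held the most, by a wide margin for Otc. Amino acid breakdown had 28 of 36 genes lower and 1 higher (median -1.57), and the counts that fell were 6 of 8 for phenylalanine and tyrosine, 6 of 7 for tryptophan, 5 of 9 for serine, glycine and threonine (3 without Normal 1), and 11 of 12 for branched-chain amino acids, lysine, histidine and proline. Hal, which breaks down histidine, went from 112, 98.2 and 99.2 to 16.3, 7.52 and 9.01 TPM (log2 fold change -3.74 ± 0.42 (SE), adjusted p = 0.000245). Tat, the tyrosine aminotransferase induced by glucocorticoids, was at 439.6, 827 and 942 and 715, 1488 and 870.5 TPM and not called (adjusted p = 0.934). Of 11 genes of the methionine and one-carbon cycle 9 fell (median -1.88), Aldh1l1, a folate enzyme, going from 312, 332 and 265 to 18.1, 113 and 25.6 TPM (log2 fold change -3.05 ± 0.75 (SE), adjusted p = 0.00968).

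Fat synthesis was the metabolic list with the lowest median. Of 14 lipogenic genes 13 fell and 0 rose (median -4.16, -4.82 without Empty 2). Acly, which makes cytosolic acetyl-CoA, had 983, 1127 and 1183 TPM in normal livers and 53.6, 125 and 46.9 in Empty livers (log2 fold change -4.38 ± 0.46 (SE), adjusted p = 0.000152). Acaca, which carboxylates it to malonyl-CoA, had 91.8, 181 and 97.98 and 18.1, 17.2 and 8.47 TPM (log2 fold change -3.57 ± 0.43 (SE), adjusted p = 0.000288). The 3 Empty livers were several-fold below the normal livers for both. Of 19 cholesterol genes 7 fell (median -1.05), but 15 did without Empty 2 (median -1.78), 4 without Empty 3 and 4 with library totals. Fatty acid oxidation had 10 of 22 genes lower and 0 higher (median -1.04), and 3 higher without Empty 2, but with library totals only 2 were lower and 1 higher, and 2 lower and 0 higher in limma on TPM. Acadm, the medium-chain dehydrogenase, went from 523, 443 and 485 to 202, 237 and 202 TPM (log2 fold change -1.70 ± 0.25 (SE), adjusted p = 0.000691). Cpt1a, which admits fatty acids to mitochondria, was at 88.9, 59.6 and 80.3 and 249, 42.2 and 192 TPM, not called (adjusted p = 0.398) except without Empty 2 (1.01). Of 4 ketogenic genes 3 fell (median -1.46), among them Bdh1, which makes hydroxybutyrate, from 279.7, 264 and 326 to 40.5, 62.9 and 33.8 TPM (log2 fold change -3.17 ± 0.47 (SE), adjusted p = 0.000806).

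Glycolysis genes divided by tissue isoform. Of 7 enzymes of the liver form 4 fell and 0 rose (median -1.64), whereas of 11 isozymes and transporters typical of other tissues 9 rose and 0 fell (median 2.55). Pkm, the pyruvate kinase of most cells outside the liver, had 5.55, 5.99 and 3.47 TPM in normal livers and 162, 51.1 and 170.0 in Empty livers (log2 fold change 4.15 ± 0.51 (SE), adjusted p = 0.000373). Every Empty liver was above every normal liver for Pkm, and Empty 2 was the lowest of them. In gluconeogenesis and glycogen metabolism 7 of 11 genes fell and 1 rose (median -1.13; 3 fell with library totals), and the rise was Pck1, the gluconeogenic carboxykinase, from 57.2, 72.6 and 152 to 879, 1648 and 945 TPM (log2 fold change 3.10 ± 0.55 (SE), adjusted p = 0.00181).

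Nuclear and mitochondrial genes of energy metabolism differed in their counts. Of 42 respiratory chain genes of the nucleus 22 fell and 0 rose (median -1.05), but only 5 fell with library totals (median -0.49) and 6 in limma on TPM (-0.53), among them the complex I subunit Ndufs1, from 162, 193 and 165 to 62.4, 74.7 and 58.4 TPM (log2 fold change -1.93 ± 0.18 (SE), adjusted p = 8.79e-05). Of 13 respiratory chain genes of the mitochondrial genome 0 fell and 0 rose (median -0.57); whether both lists differ was not tested. Mt-nd1 was at 6631, 6673 and 5918 and 6371, 6359.6 and 7545 TPM (adjusted p = 0.325). In the tricarboxylic acid cycle 8 of 15 fell (median -1.15; 2 with library totals and in limma on TPM), with Sdha, a succinate dehydrogenase subunit, at 305, 330.4 and 307 and 119, 159 and 115 TPM (log2 fold change -1.78 ± 0.21 (SE), adjusted p = 0.000261). The median difference of the cycle from normal livers was -1.14, -1.10 and -1.24 in the 3 Empty livers, and that of the mitochondrial genome list -0.44, -0.88 and -0.48.

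By zone of the lobule, 6 of 10 periportal genes fell and 1 rose (median -2.21), and 3 of 11 pericentral genes fell and 2 rose (median -0.07, 0.51 with library totals). Slc1a2, a glutamate transporter of the pericentral rim, rose from 5.24, 1.47 and 0.395 to 93.04, 70.9 and 40.04 TPM (log2 fold change 4.36 ± 0.76 (SE), adjusted p = 0.00195), while Glul, the glutamine synthetase of the same cells, was at 188, 152 and 162 and 475, 485 and 380.4 TPM and below the 2-fold threshold (log2 fold change 0.90; above it with library totals, at 1.44, and without Empty 3, at 1.05). Iron genes gave 2 rises and 2 falls among 12 (median -0.14, 0.41 with library totals). Hmox1, heme oxygenase, rose from 25.9, 20.5 and 24.3 to 358, 406 and 304 TPM (log2 fold change 3.40 ± 0.54 (SE), adjusted p = 0.00113), and the iron hormone gene Hamp was at 643, 1086 and 1165 and 729, 1195 and 1544 TPM (adjusted p = 0.64). Of 15 NRF2 targets 2 rose and 5 fell (8 without Empty 2; median -0.78), in opposite directions for Gpx2, a glutathione peroxidase of epithelia, at 1.12, 0.117 and 3.69 and 108, 148 and 148 TPM (log2 fold change 5.81 ± 0.65 (SE), adjusted p = 0.000266), and Gclc, which starts glutathione synthesis, at 127, 161 and 131 and 19.5, 50.2 and 25.9 TPM (log2 fold change -2.65 ± 0.33 (SE), adjusted p = 0.000319). Clock genes gave 2 rises and 4 falls among 17 (2 to 7 falls without single livers, median 0.00, 0.53 with library totals and -0.51 without Empty 2). The time of day of collection is not given in the sources used here.

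Of 19 bile duct epithelium markers tested, 16 were higher and 0 lower (median 5.68, or 1.98 over the 9 with at least 10 counts in every library). Krt19, a keratin of cholangiocytes, had 0.181, 1.28 and 0.336 TPM in normal livers and 14.7, 38.5 and 35.996 in Empty livers (log2 fold change 5.07 ± 0.73 (SE), adjusted p = 0.000784). Krt7, its partner in bile ducts, had 0.121, 0.285 and 0.0562 and 23.999, 39.01 and 65.5 TPM (log2 fold change 7.52 ± 0.76 (SE), adjusted p = 0.000169). Both keratins were present in all 3 Empty livers at levels no normal liver approached.

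Most of the scar-forming genes tested rose. Of 26 genes of activated stellate cells and matrix 22 rose and 0 fell (median 3.07), and the count was 22 without any single liver. Of 15 collagens 13 rose (median 2.49, or 2.40 with Col15a1 at its detection bound). Col1a1, the main chain of scar collagen, had 1.97, 3.29 and 2.51 TPM in normal livers and 66.4, 81.6 and 57.01 in Empty livers (log2 fold change 4.21 ± 0.26 (SE), adjusted p = 2.95e-05). Col3a1 had 88.9, 86.8 and 81.3 and 356, 627 and 348 TPM (log2 fold change 1.86 ± 0.28 (SE), adjusted p = 0.000757). Every Empty liver was above every normal liver in both collagens, and Empty 2 was the highest. Of 15 matrix proteases and inhibitors 12 rose and 1 fell (median 3.31, or 1.69 over those with at least 10 counts in every library), including the gelatinase Mmp2, from 4.11, 4.60 and 4.01 to 59.7, 44.97 and 77.9 TPM (log2 fold change 3.31 ± 0.27 (SE), adjusted p = 6.12e-05). Markers of quiescent stellate cells were mixed, with 1 of 7 higher and 2 lower (median -0.29, 0.23 with library totals). Lrat, which stores retinol, was at 13.4, 12.7 and 13.7 and 7.90, 14.5 and 3.11 TPM (adjusted p = 0.103; called lower without Empty 2, at -1.76).

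Vascular genes were mixed. Of 9 sinusoidal endothelial markers 0 rose and 1 fell (median -0.05, 0.48 with library totals), and of 11 general and capillary markers 6 rose (4 without Empty 1, Empty 2 or Normal 3) and 1 fell. Kdr, a VEGF receptor, fell from 20.2, 17.6 and 17.3 to 8.19, 11.5 and 7.34 TPM (log2 fold change -1.54 ± 0.22 (SE), adjusted p = 0.000624; -0.97 and under the 2-fold threshold in limma on log2(TPM + 1)). Among 14 vasoactive genes 8 rose and 0 fell (median 2.41, or 0.61 over those with at least 10 counts in every library). Edn1, encoding the vasoconstrictor endothelin 1, had 0.360, 0 and 0.167 and 8.30, 12.03 and 14.3 TPM (log2 fold change 5.46 ± 0.70 (SE), adjusted p = 0.000356), and Nos2, the inducible nitric oxide synthase, 0 and 0.826, 1.88 and 0.908 TPM (adjusted p = 0.0012). In the junction list 4 of 17 rose and 3 fell (median 0.27; 8 rose and 1 fell with library totals). Gja1, the connexin of mesenchyme and vessels, rose from 3.80, 3.87 and 2.67 to 64.9, 135 and 106 TPM (log2 fold change 4.36 ± 0.37 (SE), adjusted p = 7.3e-05), while Gjb1, the main hepatocyte connexin, fell from 405, 336 and 375 to 253, 196 and 216 TPM (log2 fold change -1.26 ± 0.22 (SE), adjusted p = 0.00167; no longer past the 2-fold threshold with library totals, at -0.71, or in limma on TPM, at -0.75).

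Leukocyte genes are given by lineage, and whether lineages differ was not tested. Of 14 neutrophil genes tested 13 rose (median 5.38, or 4.41 with Cxcr2 at its detection bound), although only 4 had at least 10 counts in every library (median 3.96) and the granule genes of immature cells, Mpo, Elane, Camp, Ltf and Ngp, had too few reads to be tested. S100a8, a cytosolic protein of neutrophils, had 1.33, 0.312 and 1.85 TPM in normal livers and 250.1, 75.4 and 503 in Empty livers (log2 fold change 7.30 ± 0.85 (SE), adjusted p = 0.000333). The neutrophil chemokine receptor gene Cxcr2 was at 0 and 3.42, 2.14 and 10.97 TPM (at least 13.7-fold, or 7.44-fold without Empty 3, adjusted p = 0.00167). Empty 3 was the highest and Empty 2 the lowest for both, and each was above all normal livers. Of 14 genes of infiltrating and scar-associated macrophages 13 rose and 1 fell (median 4.14, or 3.77 at the bound), and 4 of 7 Kupffer cell markers rose (median 1.23; 2 without Empty 1 or Normal 2). Trem2, a lipid receptor of scar-associated macrophages, was at 0 and 4.86, 1.60 and 9.75 TPM (at least 11.9-fold, or 7.62-fold without Empty 3, adjusted p = 0.00147). Clec4f, the defining Kupffer cell lectin of rodents, was at 122, 115 and 113 and 32.7, 228 and 14.3 TPM and not called (adjusted p = 0.498) except without Empty 2 (-2.81). Clec4f alone was thus lower in Empty 1 and Empty 3 and higher in Empty 2 than in all normal livers. The median difference of the 7 Kupffer cell markers from normal livers was 1.98, 0.80 and 0.61 in Empty 1, Empty 2 and Empty 3.

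Of 16 T cell and cytotoxic genes 10 rose (7 to 11 without single livers; median 1.83, or 1.77 at the bound), with Cd3d, part of the T cell receptor complex, at 0 and 1.53, 2.26 and 3.54 TPM (adjusted p = 0.00187). Of 4 B cell genes tested, 0 rose and 0 fell. Class II antigen presentation had 8 of 9 genes higher (median 3.73). Erythroid genes gave 6 rises and 1 fall, of the band 3 gene Slc4a1 (log2 fold change -1.44, adjusted p = 0.0244, with no call without Empty 1, Empty 3, Normal 1 or Normal 2, at -1.41 to -1.18, with library totals, at -0.92, or in limma on TPM, at -0.78), among 7 (median 3.63, or 3.58 at the bound), with the haemoglobin gene Hba-a1, whose paralog may share reads, at 140.0, 63.2 and 53.02 and 952, 1995 and 1481 TPM (log2 fold change 3.58 ± 0.49 (SE), adjusted p = 0.000577), and blood left in the organ was not measured. Of 7 mast cell and platelet genes tested 2 rose and 2 fell. The mast cell tryptase Tpsb2 was at 0 and 1.55, 1.20 and 2.81 TPM (at least 4.82-fold, adjusted p = 0.00134).

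Of 22 genes of LPS sensing and NF-kB feedback 17 rose and 0 fell (median 2.95, 2.05 without Empty 2). Cd14, the coreceptor that hands LPS to TLR4, had 34.2, 20.02 and 19.5 TPM in normal livers and 136, 128 and 123 in Empty livers (log2 fold change 1.88 ± 0.28 (SE), adjusted p = 0.000688), and the 3 Empty livers were nearly equal. Of 23 chemokines 16 rose and 2 fell (median 3.91, or 0.84 over those with at least 10 counts in every library). Ccl2, the monocyte attractant, had 0.599, 0.141 and 0.556 and 30.4, 431 and 46.9 TPM (log2 fold change 8.07 ± 1.49 (SE), adjusted p = 0.00258), and Cxcl12, a homeostatic chemokine of stroma, fell from 116, 86.2 and 71.4 to 39.99, 15.7 and 44.4 TPM (log2 fold change -1.98 ± 0.39 (SE), adjusted p = 0.00293). Of 22 cytokine and receptor genes 14 rose and 1 fell (median 2.43). Il1b, the inflammasome product, had 1.79, 2.27 and 1.995 and 66.3, 198 and 31.2 TPM (log2 fold change 5.11 ± 0.90 (SE), adjusted p = 0.00211). For Ccl2 and Il1b Empty 2 exceeded the other Empty livers, which were themselves above every normal liver.

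Interferon programmes were uneven. Type I interferon genes gave 5 rises and 3 falls among 21 (median 0.23), Ddx58, the RNA sensor RIG-I, falling from 39.2, 42.6 and 40.95 to 17.3, 20.9 and 18.9 TPM (log2 fold change -1.62 ± 0.13 (SE), adjusted p = 6.12e-05) and Rsad2, an antiviral enzyme, rising from 0.852, 0.642 and 1.01 to 9.52, 2.75 and 20.4 TPM (log2 fold change 3.14 ± 0.83 (SE), adjusted p = 0.0132), and Rsad2 was again lowest, among the Empty livers, in Empty 2. Of 15 interferon gamma response genes 9 rose (median 1.81), and 4 did without Empty 2 or Normal 3, 5 without Normal 2 and 6 without Normal 1. Immediate early factors, the first genes switched on by a stimulus, gave 14 rises among 17 (median 4.31, 2.09 without Empty 2 and 2.75 with at least 10 counts in every library; 9 without Normal 2 or Normal 3). Their median difference from normal livers was 5.10 in Empty 2 and 1.60 and 2.06 in Empty 1 and Empty 3.

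The remaining lists concern stress and growth. Of 16 S100 and alarmin genes 15 rose (median 3.51), and S100a4, made by fibroblasts and leukocytes, was at 0.765, 1.44 and 1.42 and 30.3, 8.81 and 44.6 TPM (log2 fold change 3.96 ± 0.64 (SE), adjusted p = 0.00116). Of 14 p53 target and arrest genes 5 rose and 0 fell (median 0.60; 8 rose with library totals), among them the cell cycle inhibitor Cdkn1a (p21), at 3.20, 1.51 and 2.44 and 20.5, 45.3 and 45.004 TPM (log2 fold change 3.41 ± 0.46 (SE), adjusted p = 0.000583). Of 32 cell cycle and replication genes 14 rose (median 0.76), although 9 did without Empty 2, 7 without Normal 1 and 6 without Normal 2. Mki67, the marker of cycling cells, was at 0.696, 0.440 and 1.25 and 2.77, 6.12 and 3.03 TPM (log2 fold change 1.80 ± 0.48 (SE), adjusted p = 0.0135). Of 11 hypoxia genes 7 rose and 1 fell (median 1.58), with Ndrg1 at 2.58, 1.46 and 1.36 and 24.2, 42.8 and 33.9 TPM (log2 fold change 3.70 ± 0.42 (SE), adjusted p = 0.000275). Cell death effectors gave 6 rises among 18 (median 0.48), and Casp1, the inflammasome protease, was at 3.84, 4.46 and 4.09 and 23.7, 13.05 and 33.98 TPM (log2 fold change 1.98 ± 0.39 (SE), adjusted p = 0.00314). Few members were called among endoplasmic reticulum stress genes (2 higher and 1 lower of 20, median 0.02; 5 higher and 0 lower with library totals), heat shock genes (2 of 9, median -0.20, 0.36 with library totals), ribosomal proteins (1 of 25, median 0.54; 15 with library totals and 12 in limma on TPM) and ribosome assembly factors (1 of 21, median 0.20; 5 in both).

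**Figure D4:**
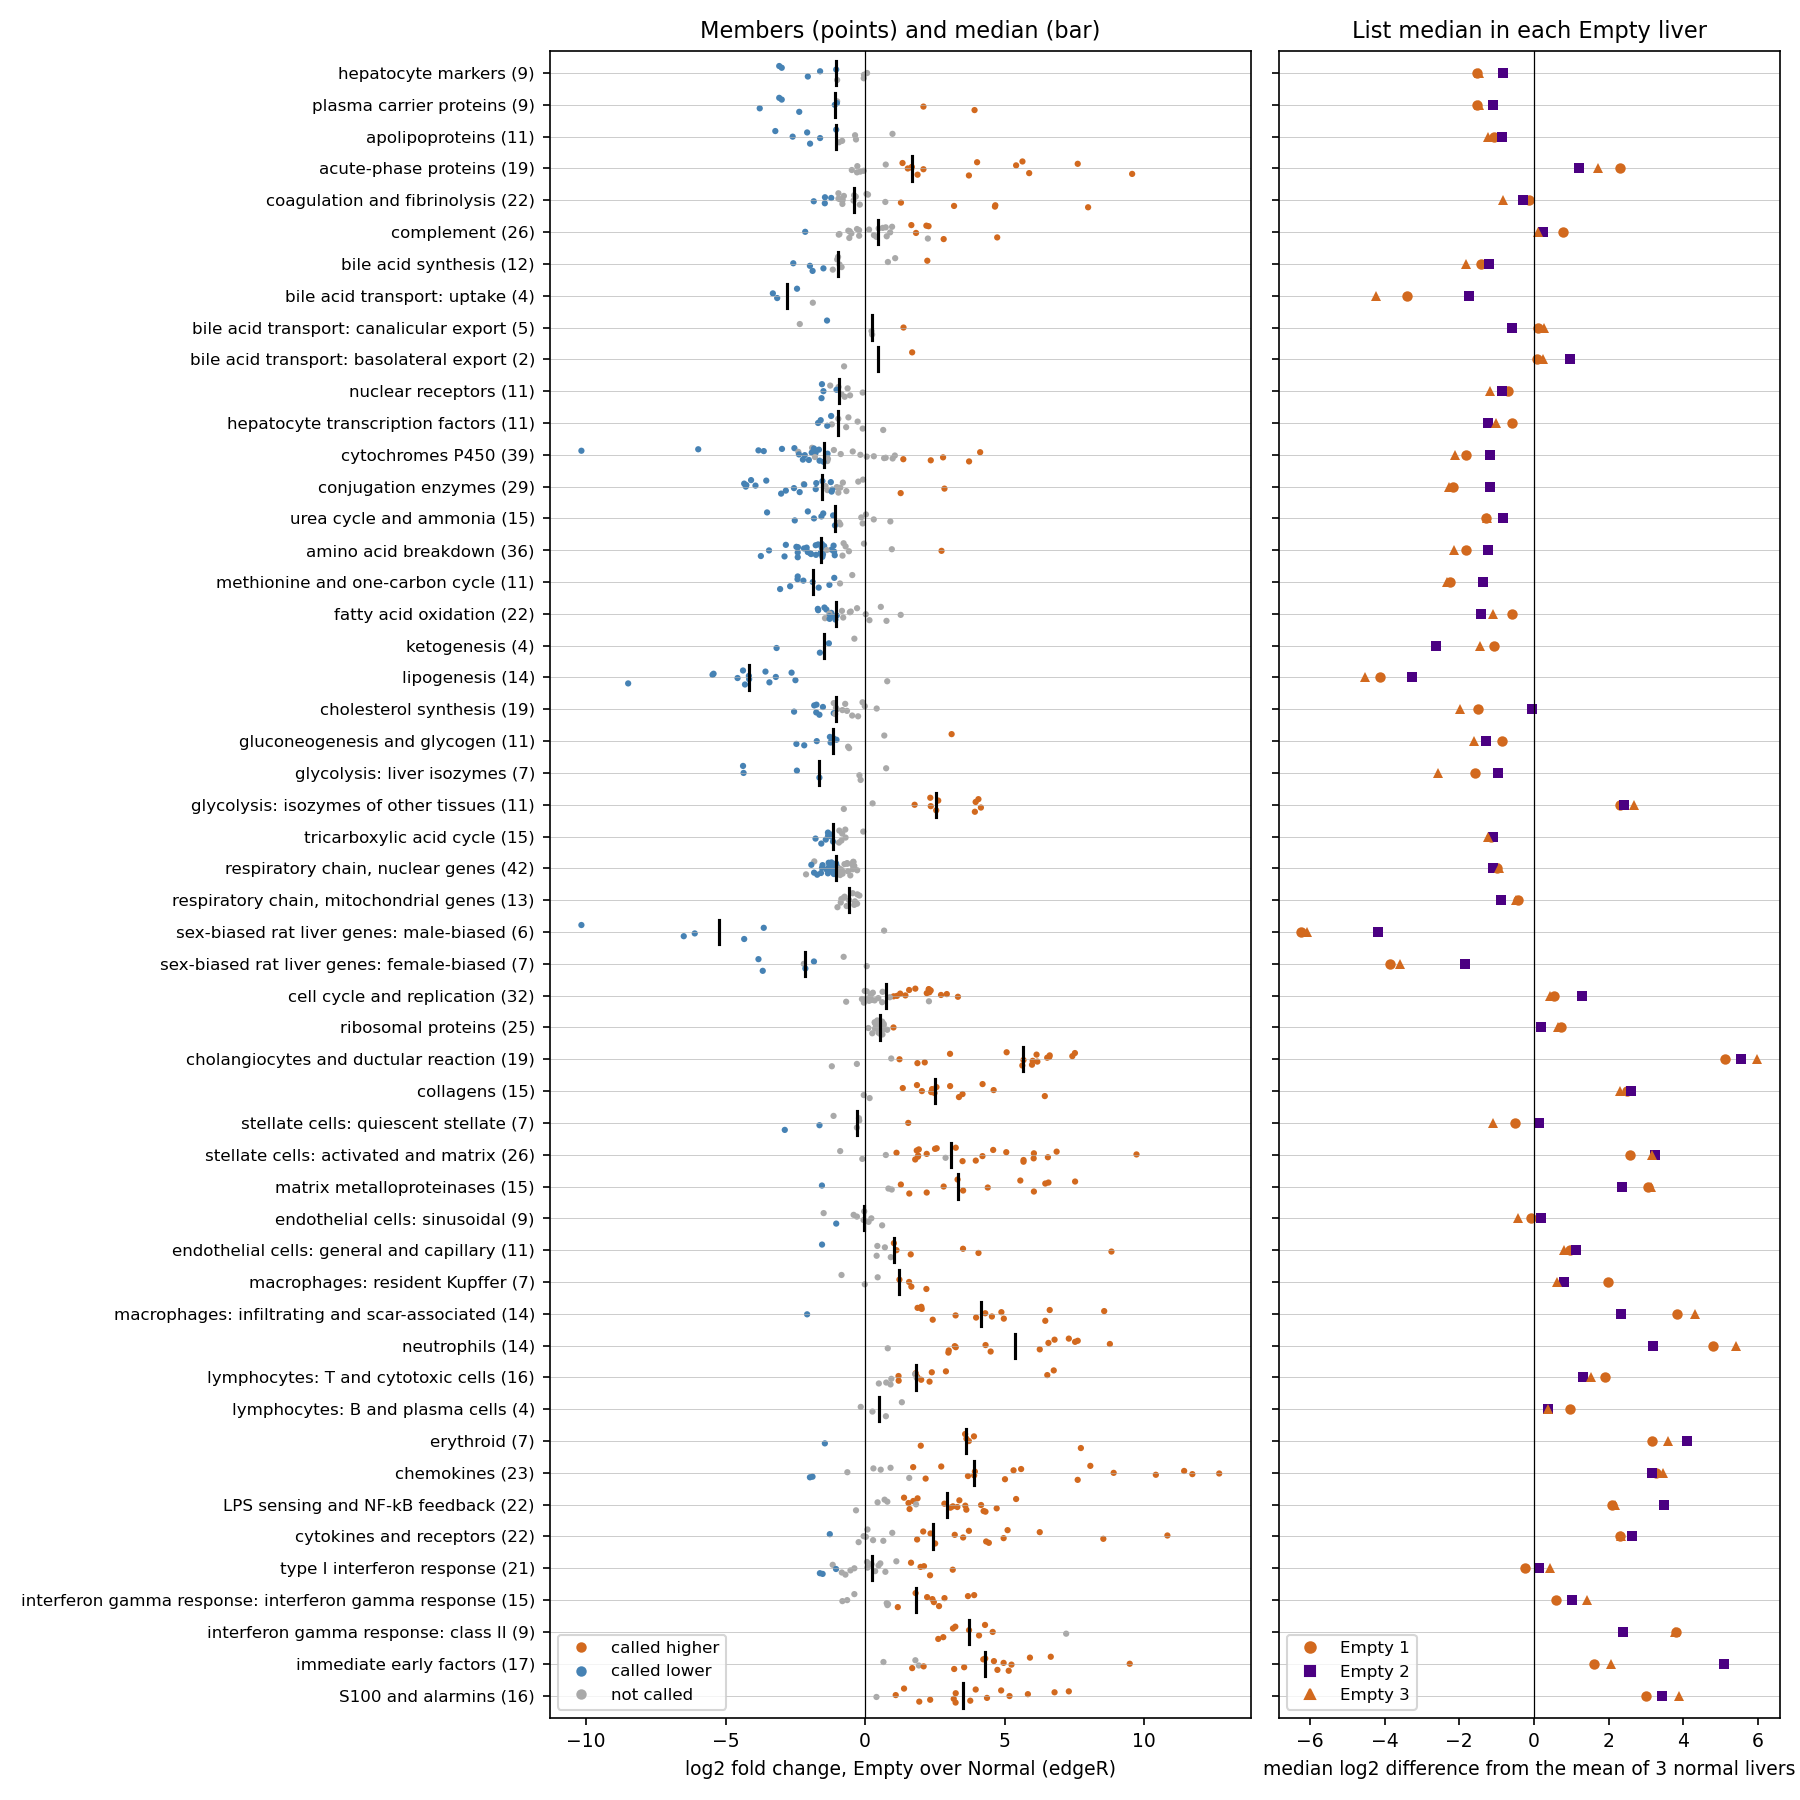
Left, the log2 fold change of each tested member (points, coloured by call) and the median (black bar) of gene lists or parts of lists, with the number tested in parentheses. Right, the median difference of each list from the mean of normal livers in each Empty liver. The medians of the bile duct, neutrophil and immediate early lists, many of whose members had under 10 counts in some library, are 5.68, 5.38 and 4.31, and that of fat synthesis is -4.16; Empty 2 departs from the others in immediate early genes (5.10 against 1.60 and 2.06).

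The Empty livers did not form a uniform group. Empty 1 and Empty 3 correlated at a Spearman rho of 0.974 across genes, and Empty 2 with them at 0.942 and 0.940, while pairs of normal livers reached 0.984 to 0.985; genes are not independent replicates. In Empty 2, 188 genes lay over 4-fold above and 126 over 4-fold below both other Empty livers, where these were within 2-fold of each other. The same counts were 19 and 20 for Empty 1 and 17 and 28 for Empty 3. The genes named next were picked for this gap, after their values were seen. Above the others in Empty 2 were the immediate early gene Fos, at 1.64, 127 and 2.95 TPM in Empty livers against 0.157, 0.444 and 0.292 in normal livers, and Ptgs2, the inducible prostaglandin synthase, at 1.15, 36.1 and 1.26 against 0, 0.0807 and 0. Fads2, a desaturase of polyunsaturated fatty acids, was also higher there, at 16.1, 602 and 10.9 against 3570.4, 3177 and 3327 in normal livers. Below the others in Empty 2 were Cxcl9, a chemokine induced by interferon gamma, at 460.1, 15.1 and 629 TPM against 16.4, 16.01 and 18.04 in normal livers, and the matrix proteoglycan Dcn, at 534, 32.9 and 441 against 2.35, 2.84 and 2.31. The median difference of the hepatocyte markers from normal livers was -0.82 in Empty 2 and -1.52 and -1.48 in Empty 1 and Empty 3, and no label separates it from the other Empty livers.

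**Figure D5:**
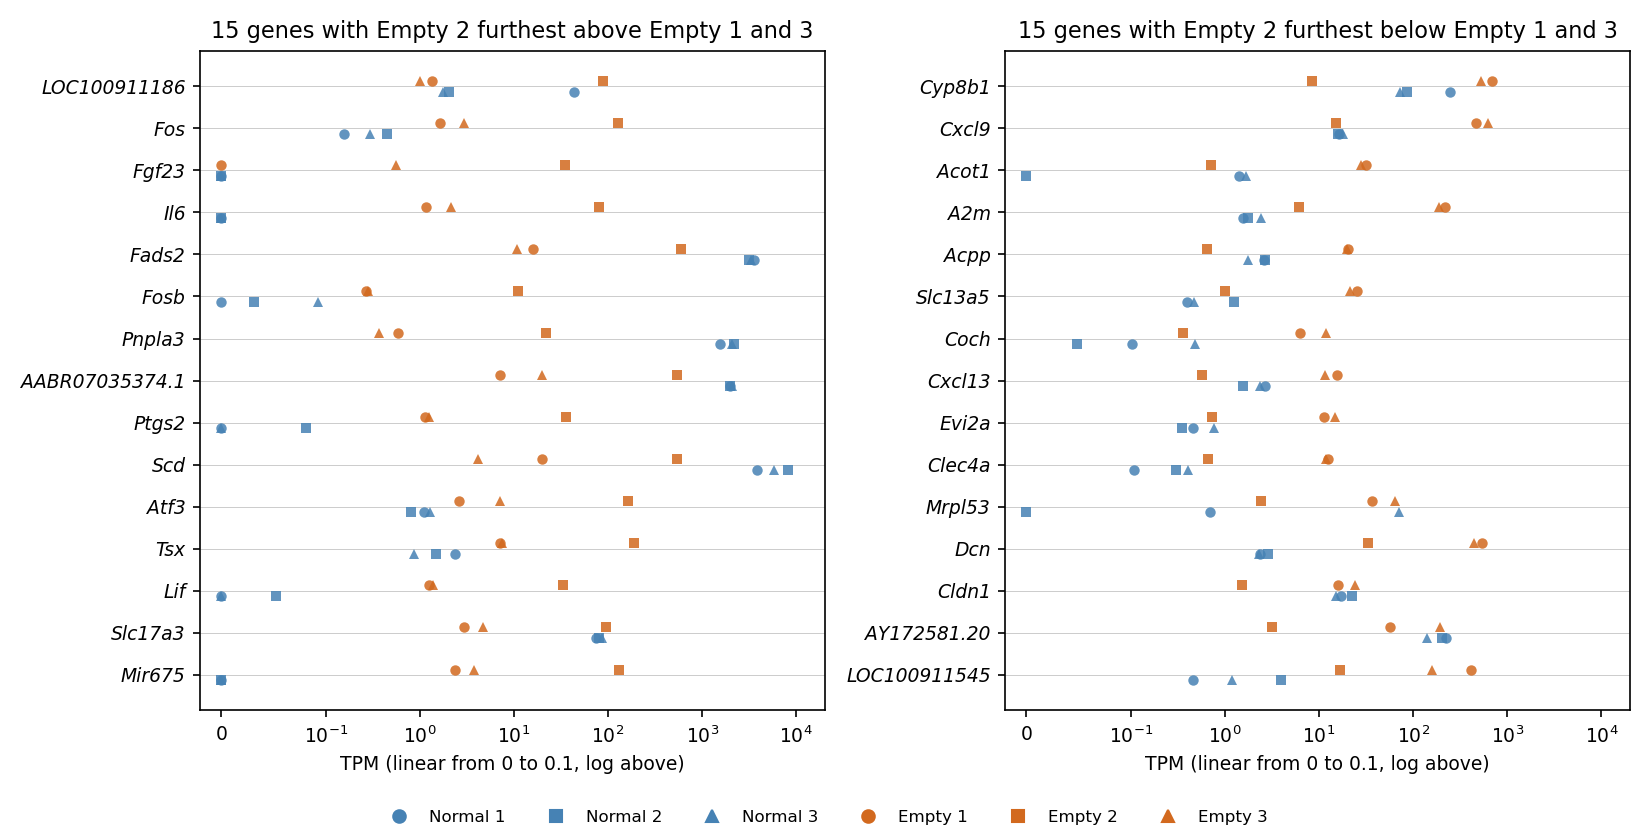
TPM per liver, linear from 0 to 0.1 and log above, of the 15 genes with Empty 2 furthest above and the 15 furthest below both other Empty livers, chosen by that gap among genes reaching 10 TPM in an Empty liver. For Fos, Empty 1 and Empty 3 are at 1.64 and 2.95 TPM against 127 in Empty 2, while for Scd they lie apart, at 20.1 and 4.14 TPM against 539.7.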

How the data were processed

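Poly(A) RNA of 9 livers (3 Empty, 3 Normal and 3 treated, labelled as biological replicates) was sequenced. The authors deposited read counts per gene and TPM. Their processing notes name HISAT2, featureCounts, Trimmomatic and the build rn6; the paper's methods name Cutadapt and the mouse build GRCm38, although the deposited gene identifiers are of rat. Whether strand was used in counting is not given in the sources used here, so overlapping genes and paralogs are uncertain. Counts of all 9 libraries were fitted in edgeR 4.0.16 (R 4.3.3) by the quasi-likelihood test, with filterByExpr, TMM and the contrast of Empty against Normal, and checked on simulated data. DESeq2 1.42.0 and limma 3.58.1, the latter on log2(TPM + 1), were alternatives. Genes were named by rule: the 10 largest fold changes each way among genes at 10 TPM or more in the higher group, the 10 largest TPM changes each way, and, of each list, the first 2 tested members and the called members with the largest change each way. Other list members named were chosen after their values were seen. The 58 lists held 1085 symbols, of which 1017 matched the table, 949 were tested and 68 were filtered for low counts. Members, lists and tests were chosen with earlier results of these data known. Fold bounds use a floor of 3 counts per library and cover counting error only. Promoters came from RefSeq (GRCr8). Same-numbered Empty and Normal livers did not deviate together (r = 0.03, -0.02 and 0.003 across genes), so numbers were not treated as pairs. Some items are not reported here.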

Additional observations from a re-analysis of the deposited data

How the results depend on the processing

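Against 2916 genes higher and 1560 lower with edgeR, the counts moved with scaling, threshold and filter. Limma on log2(TPM + 1) gave 690 lower, 748 with a pseudocount of 0.1 and 693 with no filter, on a scale without TMM factors. Library totals gave 4477 higher and 682 lower, a minimum of 10 counts in every library 1644 higher among fewer genes tested, and glmTreat, which tests against a 2-fold change, 1891 and 632. Without a fold threshold 3036 were lower. DESeq2 gave 3295 and 1686, of which 2888 and 1523 were shared with edgeR, and no adjusted p for 37 of the called genes. Leaving out 1 liver at a time gave 2621 to 2930 higher and 1336 to 1776 lower, the highest of both without Empty 2, and 486 to 514 of 544 called list members remained called. Without Empty 2, Bhlhe40, Il1a and Sds turned to a called fall, and with 1 liver left out at a time their log2 fold changes ran from -1.07 to 0.37, -2.32 to 0.63 and -2.36 to 1.52; the cause was not tested. With the replicate number as a block, 2746 genes were higher and 1532 lower, and the same-numbered livers share only a number. Genes without reads in 1 group are known only to a bound, and at 3 livers a group the exact size of single changes is imprecise.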
